A study of Homo sapiens with 6 samples.

Results

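The genes described here build the extracellular matrix. They are 20 collagen chains, 8 laminin chains, 5 lysyl oxidases, 5 genes for enzymes and a chaperone of collagen folding, and 3 genes of procollagen processing. The 41 genes were chosen by name and matched by Entrez Gene ID among the 18795 genes of the table. Values are FPKM, a fragment count scaled by transcript length and by sequencing output, so levels of different genes are compared per transcript length. Of the 41 genes, 35 reached 1 FPKM in at least 1 of the 6 libraries, 21 reached it in all 6, and 6 in no library. The mean over the 6 libraries was at least 1 FPKM for 29 of them, and only these 29 were tested.

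The libraries came from HCC70 and MDA-MB-468, which are human breast cancer cell lines of the basal-like kind. Each line was sorted by antibody staining into 3 populations. All carry keratin 18, an epithelial filament. The K18+ cells were named for that stain alone, the K18+K14+ cells were also positive for keratin 14, and the K18+Vim+ cells also for vimentin. The labels give no treatment or genetic change for either line. Cells had been fixed in methanol, and RNA was extracted with a kit made for fixed tissue. Each population gave 1 library per line, so n = 2 per population and the 2 lines are the only replicates. HCC70 was grown in RPMI and MDA-MB-468 in Leibovitz L15 medium, so line and medium cannot be told apart.

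Collagens are trimers with a long triple helix. Prolyl and lysyl hydroxylases modify the chains inside the cell, the chaperone HSP47 (SERPINH1) guards the folded helix, and proteases such as BMP1 trim the ends outside the cell, helped by enhancers such as PCOLCE. Lysyl oxidases then cross-link the fibres. Laminins are trimers of an alpha, a beta and a gamma chain, and together with collagen IV they form the basement membrane, the sheet on which the epithelium of the breast rests.

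Of the 3 sort antigens, KRT14 was highest in the K18+K14+ library of each line and VIM highest in the K18+Vim+ library. KRT18, which all populations were sorted for, stood at 158, 174 and 216 FPKM in HCC70, compared with 464 and 569 FPKM in MDA-MB-468, and was lowest, at 67.7 FPKM, in the library labelled K18+Vim+ of MDA-MB-468. That library also went against its line in genes that mark the line. MDA-MB-468 is known to lack SMAD4 and RB1 and to carry extra copies of EGFR. SMAD4 stood at 0.566 and 0.310 FPKM in its other 2 libraries and at 5.19 FPKM in this library. RB1 stood at 0.307 and 0.269 against 6.68 FPKM, and EGFR at 153 and 70.7 against 10.4 FPKM. SEC61G, LANCL2 and VOPP1 also mark the line. SEC61G stood at 4875 and 10000 against 720 FPKM, with 218 to 251 FPKM in HCC70. LANCL2 stood at 291 and 179 against 26.3 FPKM, with 5.61 to 10.1 FPKM in HCC70. VOPP1 stood at 251 and 344 against 24.1 FPKM, with 53.1 to 67.4 FPKM in HCC70. SEC61G and LANCL2 thus lay above HCC70 in this library and VOPP1 below. The summed level of 7 epithelial markers was 152 FPKM in this library and 1694 to 2782 FPKM in the other 5 libraries. All 7 were above 1 FPKM in each. Of 12 fibroblast markers 2 to 4 reached 1 FPKM in a library, with a summed level of 19.3 FPKM in the library that stood apart and 44.6 to 108 FPKM in the others, most of it FBLN1. In that library 6 of the 12 lay at the table's floor of 0.1 FPKM, PDGFRA, LUM, THY1 and POSTN among them, and FBN1 was higher, at 2.40 FPKM, than in the other 5, at 0.233 to 0.872 FPKM. Of 8 endothelial markers 1 or 2 reached 1 FPKM in any library, and PECAM1 and TEK lay at the floor in all 6. The read depth behind the values is unknown. In bulk RNA, fewer cells of a type and less RNA per cell cannot be told apart.

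A pair of laminin chains had the highest mean levels of the set. LAMB2, the beta2 chain, stood at 265, 287 and 323 FPKM in the HCC70 K18+, K18+K14+ and K18+Vim+ libraries, at 288 and 515 FPKM in the MDA-MB-468 K18+ and K18+K14+ libraries, and at 99.7 FPKM in the library labelled K18+Vim+ of MDA-MB-468. The same order of libraries is used in all lists of values below. LAMA5, the alpha5 chain of most adult epithelial basement membranes, stood at 217, 181 and 355 FPKM in HCC70, compared with 463, 453 and 89.3 FPKM in MDA-MB-468. Both genes were lowest in the library labelled K18+Vim+ of MDA-MB-468.

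Next after these 2 laminin chains came COL18A1, the collagen of basement membranes that also yields endostatin, and the folding genes. COL18A1 stood at 88.9, 112 and 140 FPKM in HCC70, compared with 83.9, 50.9 and 27.4 FPKM in MDA-MB-468. SERPINH1 stood at 51.6, 49.5 and 46.7 FPKM, and at 81.0, 135 and 76.4 FPKM. PLOD1, a lysyl hydroxylase, stood at 56.3, 59.1 and 86.5 FPKM, and at 31.4, 79.5 and 31.2 FPKM. All 3 were well above 1 FPKM in every library. In the K18+ and K18+K14+ libraries SERPINH1 was higher in each of MDA-MB-468 than in either of HCC70. Its log2 difference between the lines, 1.03 ± 0.38 (SE, n = 2 libraries in each line), did not pass the test over these libraries described below (limma adjusted p = 0.12).

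The chains of interstitial fibres were sparse beside this machinery. COL1A1, the alpha1 chain of collagen I, stood at 7.56, 6.07 and 9.10 FPKM in HCC70 and 3.55, 5.26 and 2.78 FPKM in MDA-MB-468. Its usual partner COL1A2 did not exceed 0.306 FPKM, and COL3A1, the collagen III chain, lay at the floor in 5 libraries and at 0.176 FPKM in the library labelled K18+Vim+ of MDA-MB-468. The paired basement membrane chains COL4A1 and COL4A2 were at most 0.406 and 1.02 FPKM in 5 libraries, and reached 1.48 and 3.10 FPKM in that library. LAMA1, the laminin alpha1 chain, and LOXL4, a lysyl oxidase, had the same pattern, at most 0.107 and 0.1 FPKM in 5 libraries and 2.42 and 0.435 FPKM in that library. The 6 genes that reached 1 FPKM nowhere were COL1A2, COL3A1, COL6A3, COL8A1, COL17A1 and LOXL4. COL17A1, the hemidesmosome collagen of basal keratinocytes, did not exceed 0.268 FPKM, also in the K18+K14+ libraries. The set took between 0.110% and 0.285% of the summed FPKM of a library, lowest in the library labelled K18+Vim+ of MDA-MB-468 and highest in HCC70 K18+Vim+.

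**Figure D1:**
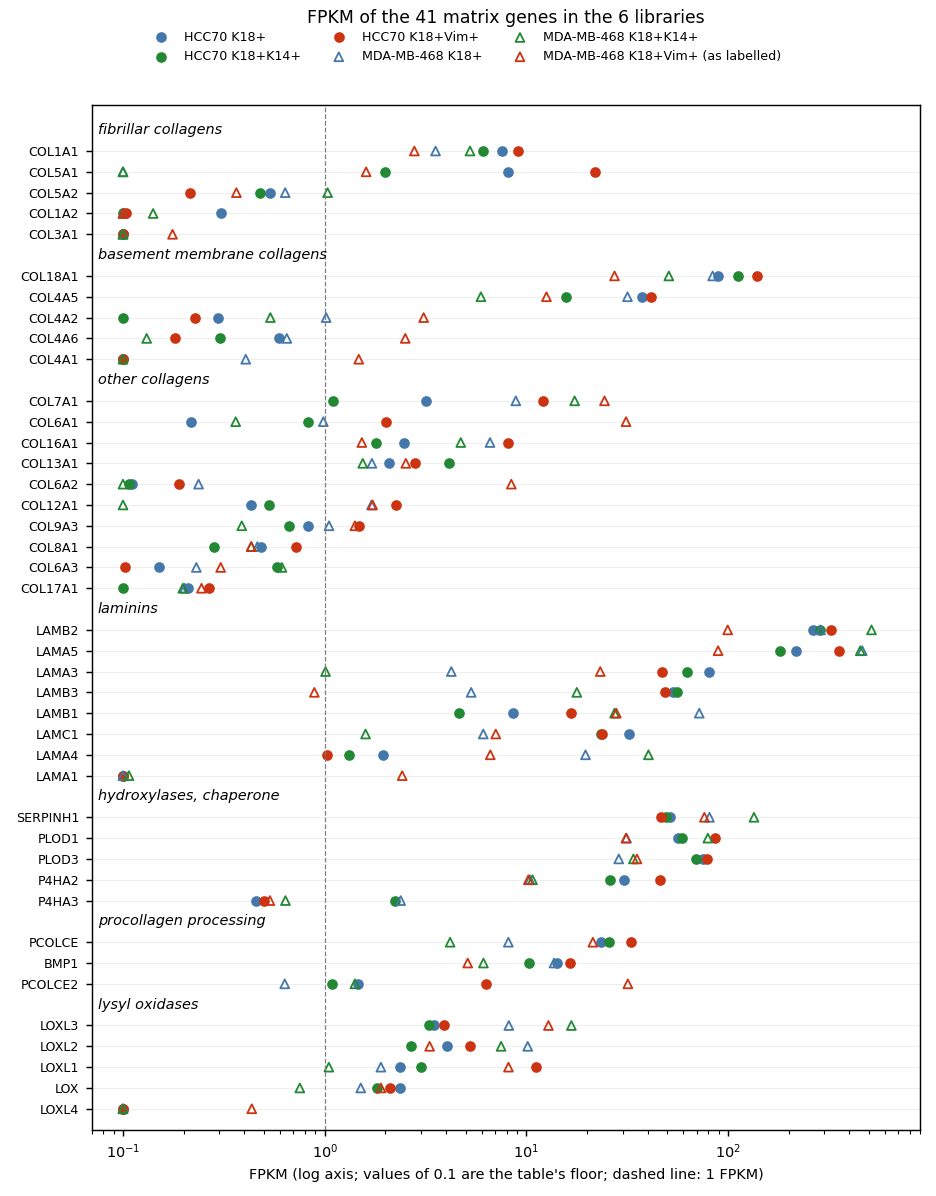
FPKM of each of the 41 genes (log axis) in the 3 HCC70 libraries (filled circles) and the 3 libraries labelled MDA-MB-468 (open triangles), coloured by population and grouped by role. LAMB2 and LAMA5 lie farthest to the right in every HCC70 library, while COL3A1 and LOXL4 lie at the floor of 0.1 FPKM in 5 of 6 libraries.

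The promoter windows of COL4A1 and COL4A2 show how closely this pair is placed. The genes lie head to head on chromosome 13, with starts 127 bases apart in RefSeq (GRCh38.p14), and their mRNAs were low in the same 5 libraries. The 126 bases between the starts are shown on the plus strand (chr13:110307158-110307283), read towards COL4A2. Capitals mark matches on either strand to a CCAAT box, to a GC box (spelled GGGCGG here) and to the AP-1 element (spelled TGANTCA here), and no match overlaps another.
between COL4A1 and COL4A2: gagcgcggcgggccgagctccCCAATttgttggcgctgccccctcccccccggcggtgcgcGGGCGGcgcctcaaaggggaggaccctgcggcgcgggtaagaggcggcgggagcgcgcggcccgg
This stretch holds 1 CCAAT box and 1 GC box, and 80.2% of its bases are G or C. Among 35116 RefSeq promoter windows of the same length, 21.1% hold a CCAAT box, 34.6% a GC box and 3.5% the AP-1 element, and the median share of G and C is 60.3%. Entries were found for 30 of the 41 genes. A match to letters is a description of the sequence and not evidence of binding.

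The comparison of the lines asks how matrix expression differs between HCC70 and MDA-MB-468 cells. It used the 4 K18+ and K18+K14+ libraries, 2 per line, because the library labelled K18+Vim+ of MDA-MB-468 goes against its line. The 2 libraries of a line are 2 stained populations, and whether they came from separate cultures is not given. Population was left out of the main fit as a term, so differences between the stains add to its spread. With limma, 8 of the 29 genes tested passed an adjusted p of 0.05, of which 5 were lower and 3 higher in MDA-MB-468. Of all 12454 genes tested 11.6% passed, 6.39% lower and 5.2% higher. The 8 were 5 laminin chains, 2 collagens and PCOLCE, and the median log2 difference was -0.20 over the 29 genes and -0.05 over all genes. With the K18+K14+ library of MDA-MB-468 left out that of the 29 was 0.06, so its sign is not settled.

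The laminin chains split in both directions. LAMA3 (Entrez Gene 3909), the alpha3 chain of laminin-332, which anchors epithelium to its basement membrane, stood at 81.0, 62.6 and 47.1 FPKM in HCC70. In MDA-MB-468 it stood at 4.25 and 1.01 FPKM, and at 23.3 FPKM in the library labelled K18+Vim+. In the 4 libraries compared both HCC70 values lay above both of MDA-MB-468. The fitted log2 difference, MDA-MB-468 minus HCC70, was -4.48 ± 0.53 (SE, n = 2 per line, limma adjusted p = 0.0078). LAMB3 (Entrez Gene 3914), the beta3 chain of the same trimer, stood at 53.2, 56.0 and 48.5 FPKM in HCC70 against 5.33, 17.8 and 0.889 FPKM in MDA-MB-468. It differed by -2.35 ± 0.55 (limma adjusted p = 0.0452), with no overlap between the lines in the 4 libraries compared.

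LAMC1 (Entrez Gene 3915), the gamma1 chain shared by most other laminins, was also lower in MDA-MB-468. It stood at 32.2, 23.5 and 23.6 FPKM in HCC70 against 6.12, 1.60 and 7.06 FPKM in MDA-MB-468, a log2 difference of -2.73 ± 0.55 (limma adjusted p = 0.0314). LAMA4 (Entrez Gene 3910), the alpha4 chain known from vessels and mesenchyme, was higher. It stood at 1.94, 1.32 and 1.03 FPKM in HCC70, compared with 19.7, 40.3 and 6.63 FPKM in MDA-MB-468, a log2 difference of 3.48 ± 0.46 (limma adjusted p = 0.0104). LAMB1 (Entrez Gene 3912), the beta1 chain, stood at 8.55, 4.63 and 16.6 FPKM in HCC70 against 72.0, 27.4 and 27.9 FPKM in MDA-MB-468, and was higher by 2.63 ± 0.55 (limma adjusted p = 0.034). For each of these 3 genes the lines did not overlap in any population. LAMA5 and LAMB2 did not pass, with log2 differences of 1.20 ± 0.37 and 0.48 ± 0.44 (limma adjusted p = 0.087 and 0.488).

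As shares of the summed FPKM of all alpha chains, LAMA3 made up 26.9% and 25.6% in the HCC70 K18+ and K18+K14+ libraries and 0.870% and 0.204% in those of MDA-MB-468. LAMA5 made up 72.2% and 73.8% against 94.9% and 91.6%, so it was the leading alpha chain in both lines. In the HCC70 K18+Vim+ library the LAMA3 share was 11.7% and the LAMA5 share 88%. In the library labelled K18+Vim+ of MDA-MB-468 they were 19.1% and 73.4%. LAMB3 made up 16.3% and 16.1% of beta chain FPKM in HCC70 against 1.46% and 3.18% in MDA-MB-468.

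**Figure D2:**
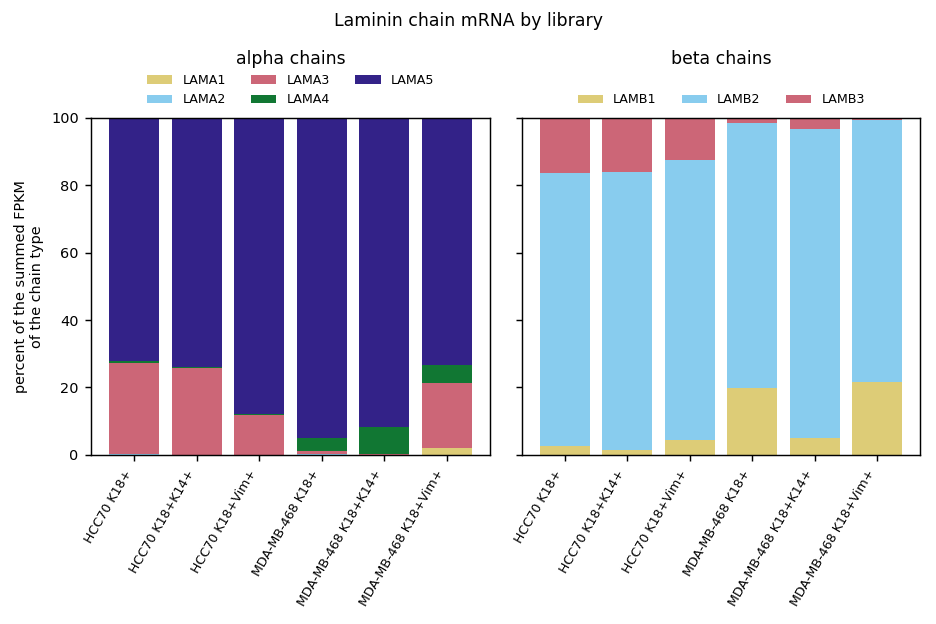
Share of each laminin chain in the summed FPKM of its chain type (percent, stacked to 100) for the 6 libraries, with 1 panel each for alpha and beta chains. LAMA3 takes 26.9% and 25.6% of alpha chain FPKM in HCC70 K18+ and K18+K14+ and under 1% in the same populations of MDA-MB-468.

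Among the collagens, COL5A1 and COL7A1 differed between the lines in opposite directions. COL5A1 (Entrez Gene 1289), a chain of collagen V, which sets the width of collagen I fibrils, stood at 8.08, 2.0 and 21.9 FPKM in HCC70. In MDA-MB-468 it lay at the floor in both libraries compared and at 1.61 FPKM in the library labelled K18+Vim+. Its log2 difference was -2.25 ± 0.53 (limma adjusted p = 0.0461), a value that depends on the floor and the pseudocount of 1 FPKM. COL7A1 (Entrez Gene 1294), the anchoring fibril collagen that ties basement membrane to stroma, stood at 3.16, 1.10 and 12.1 FPKM in HCC70, compared with 8.87, 17.4 and 24.4 FPKM in MDA-MB-468. It was higher in MDA-MB-468 by 2.19 ± 0.52 (limma adjusted p = 0.0461). COL18A1, COL1A1 and COL13A1 were lower in each of the 2 MDA-MB-468 libraries than in either HCC70 library, and COL16A1 higher, without passing the test.

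Of the processing and modifying genes, PCOLCE passed. PCOLCE (Entrez Gene 5118), which speeds up the trimming of procollagen by BMP1, stood at 23.4, 25.6 and 33.0 FPKM in HCC70 against 8.15, 4.19 and 21.4 FPKM in MDA-MB-468, with a log2 difference of -1.89 ± 0.41 (limma adjusted p = 0.0385). BMP1 itself overlapped between the lines, at 14.2, 10.3 and 16.5 FPKM against 13.7, 6.13 and 5.12 FPKM. P4HA2, a prolyl hydroxylase subunit, stood at 30.5, 26.0 and 45.8 FPKM against 10.4, 10.7 and 10.2 FPKM, with a log2 difference of -1.33 ± 0.33 (limma adjusted p = 0.0529). PLOD3, which hydroxylates lysines and adds sugars to them, stood at 74.8, 69.4 and 78.6 FPKM against 28.7, 34.0 and 35.4 FPKM, a difference of -1.18 ± 0.32 (limma adjusted p = 0.0628). Both lay lower in each MDA-MB-468 library compared than in either of HCC70 and missed the threshold. None of the 4 lysyl oxidases tested passed. LOXL3 came nearest, at 3.50, 3.30 and 3.91 FPKM in HCC70 and 8.19, 16.7 and 12.9 FPKM in MDA-MB-468, a log2 difference of 1.54 ± 0.44 (limma adjusted p = 0.0737).

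How many of these genes passed depends on single libraries, by the range given at the end. Where 1 is left out the lone library of its line is assumed to vary like those of the other. Without the HCC70 K18+ library the median log2 difference was -0.16 over the 29 genes and 0.04 over all genes. With each library left out in turn, the log2 difference of LAMA3 lay between -5.17 and -3.78 and that of COL5A1 between -3.05 and -1.45. With population as a term, which pairs the libraries by stain, 13 of the 29 and 3366 of all 12454 genes passed. With no filter on low values 0 of 41 and 118 of all 18795 genes passed. At an unadjusted p under 0.05 there were then 15 of the 41 and 4097 of all genes. Rescaling each library to the same summed FPKM moved the median of all genes from -0.05 to -0.31. It left 1037 of all genes and 5 of the 29 past the threshold, LAMA4 higher and LAMA3, LAMB3, LAMC1 and COL5A1 lower. Quantile normalization gave 5 higher and 5 lower, and 972 higher and 1054 lower over all genes.

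**Figure D3:**
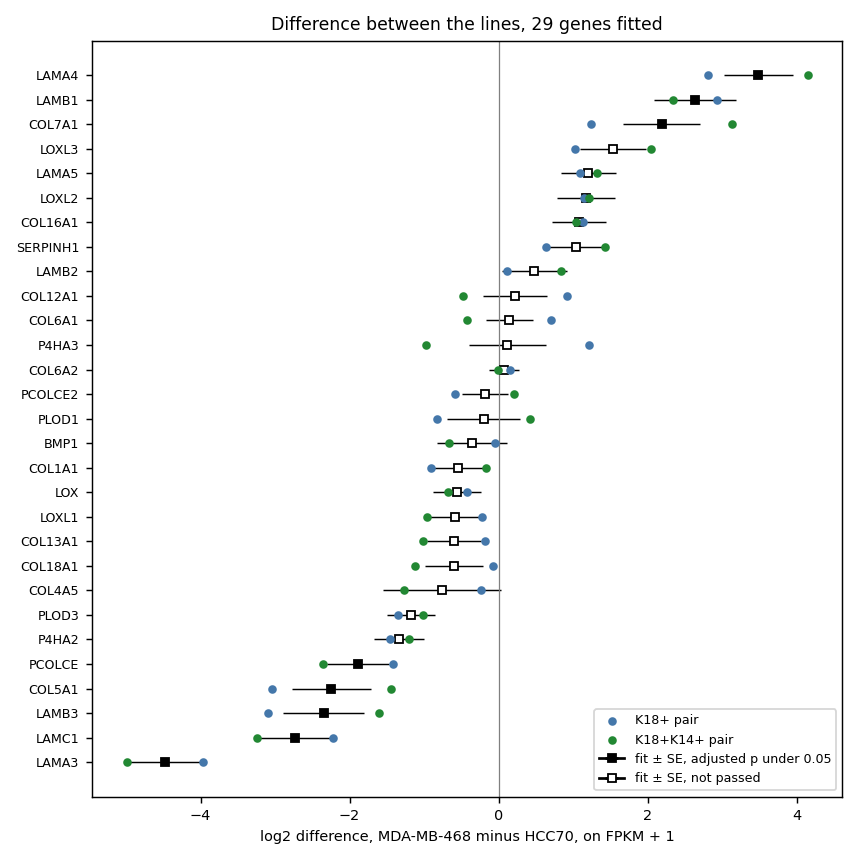
Log2 difference on FPKM + 1, MDA-MB-468 minus HCC70, for the 29 genes tested, with squares and bars for the limma fit ± SE (filled where the adjusted p was under 0.05) and dots for the K18+ and K18+K14+ pairs of libraries. LAMA4, LAMB1 and COL7A1 lie at the upper right and LAMA3, LAMC1, LAMB3, COL5A1 and PCOLCE at the lower left, with both dots on the same side of 0.

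K18+Vim+ cells were set against K18+ cells to ask which matrix genes go with vimentin. In HCC70 and between the libraries labelled MDA-MB-468 several collagen and collagen-processing genes had higher values in the K18+Vim+ library. With limma 0 of the 29 genes passed, as did 0% of all genes. At an unadjusted p under 0.05 there were 4 of the 29 and 532 of all 12454 genes. In HCC70, 7 genes were at least 2-fold higher (1.65% of all genes) and 0 at least 2-fold lower (3.42% of all genes). Between the libraries labelled MDA-MB-468, 8 were higher (11.6% of all genes) and 11 lower (16.9% of all genes). In both lines as labelled, 5 genes were higher (0.377% of all genes) and 0 lower (0.715% of all genes). The second line rests here on the library that goes against it in SMAD4, RB1 and EGFR, so agreement between the lines is not settled. The 5 were LOXL1, PCOLCE2, COL6A1, COL7A1 and COL5A1. These are ratios of 1 library to 1 library on FPKM + 1, with no replicate check. COL6A1 and COL6A2 passed the filter on the mean through the library labelled K18+Vim+ of MDA-MB-468, and PCOLCE2 was highest there. COL12A1, counted as higher in HCC70, averaged 1.13 FPKM and met the filter only through its 2.27 FPKM in HCC70 K18+Vim+. The counts over the 29 are therefore a description.

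LOXL1 (Entrez Gene 4016), a lysyl oxidase that acts mainly on elastin, stood at 2.37, 2.99 and 11.2 FPKM in HCC70, compared with 1.90, 1.05 and 8.16 FPKM in MDA-MB-468. The K18+Vim+ library was highest in HCC70 and among the libraries labelled MDA-MB-468, and the 2 K18+Vim+ values lay above the other 4. The fitted log2 difference from K18+ was 1.76 ± 0.41 (SE, n = 2 libraries in each population, adjusted p = 0.863 by limma). LOX, LOXL2 and LOXL3 were not 2-fold higher in K18+Vim+ than in K18+ in either line. LOX was listed at 2.37 FPKM in HCC70 K18+ and 2.10 FPKM in HCC70 K18+Vim+, and LOXL2 at 10.2 and 3.32 FPKM in the same populations labelled MDA-MB-468.

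PCOLCE2 (Entrez Gene 26577), another enhancer of procollagen trimming, stood at 1.46, 1.08 and 6.32 FPKM in HCC70 against 0.634, 1.41 and 31.9 FPKM in the libraries labelled MDA-MB-468. Its fitted difference was 2.95 ± 0.67 (limma adjusted p = 0.863). COL6A1 (Entrez Gene 1291), a chain of the microfibrillar collagen VI, stood at 0.218, 0.822 and 2.02 FPKM and at 0.985, 0.362 and 31.2 FPKM, with a difference of 2.66 ± 0.87 (limma adjusted p = 0.863). For both genes the K18+Vim+ values were the highest of their line, and far higher in the library labelled MDA-MB-468. The other collagen VI chains were not alike: COL6A2 stood at 0.111, 0.107 and 0.189 FPKM in HCC70 and reached 8.43 FPKM in that library, and COL6A3 did not exceed 0.614 FPKM.

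COL7A1 and COL5A1 were highest in the K18+Vim+ library of HCC70, and of the libraries labelled MDA-MB-468, in the values given above. Their K18+Vim+ to K18+ log2 ratios were 1.65 and 1.33 in HCC70 and 1.36 and 1.24 in the libraries labelled MDA-MB-468. The fitted differences were 1.51 ± 0.59 and 1.29 ± 0.54 (limma adjusted p = 0.863 for each). In HCC70, COL12A1, a collagen that decorates fibrils, and COL16A1 were also at least 2-fold higher, at 2.27 against 0.432 FPKM and 8.14 against 2.48 FPKM. Between the libraries labelled MDA-MB-468 COL12A1 stood at 1.73 against 1.71 FPKM and COL16A1 at 1.53 against 6.61 FPKM. With a pseudocount of 5 FPKM the count in HCC70 was 3 (COL5A1, COL7A1 and LOXL1, 0.602% of all genes) and that in both lines 1 (COL7A1, 0.0723% of all genes).

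Several laminin chains and COL18A1 differed in sign between the lines. LAMA5, LAMB2, LAMB1 and COL18A1 had higher values in K18+Vim+ than in K18+ in HCC70, with log2 ratios of 0.70, 0.28, 0.88 and 0.65. Between the libraries labelled MDA-MB-468 the same ratios were -2.36, -1.52, -1.34 and -1.58. LAMA3 showed the opposite, with -0.77 in HCC70 and 2.21 between the libraries labelled MDA-MB-468, and LAMB3 had -0.13 and -1.74. LAMA4 had the second lowest ratio in HCC70, at -0.53, and stood at -1.44 in the other pair. These differences between the lines were not tested.

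Without the HCC70 K18+Vim+ library, the K18+Vim+ population is the library labelled MDA-MB-468 alone, and limma put 8 of the 29 genes and 1500 of all genes past the threshold. The lone library is there assumed to vary like the other populations, so the counts describe that library and not the population. Its log2 differences from K18+ were 4.30 for COL6A1, 4.13 for PCOLCE2, 2.97 for COL6A2, 2.46 for LAMA3 and 1.85 for LOXL1, and -1.56, -2.42 and -2.12 for COL16A1, LAMA5 and LAMB3. COL6A1 and COL6A2 were among the genes tested only through that library, since their mean over the other 5 was 0.880 and 0.149 FPKM. Without the library labelled K18+Vim+ of MDA-MB-468, the population is the HCC70 K18+Vim+ library alone. The median log2 difference from K18+ was then 0.38 over the 29 genes and -0.17 over all genes. In the library labelled K18+Vim+ of MDA-MB-468, the low epithelial sum and the SMAD4 and RB1 values move with its differences given above. Their part in those differences was not tested. The median log2 ratio of the 29 genes was 0.30 in HCC70, against -0.16 over all genes tested, and -0.01 in the libraries labelled MDA-MB-468, against -0.04.

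The upstream windows of 4 of the 5 genes with higher values in both lines, as labelled, are shown, since their values were higher together in the K18+Vim+ libraries. Each is the 250 bases before the RefSeq start (GRCh38.p14), written 5′ to 3′ on the gene's strand, with capitals as above. They lie at chr9:134641553-134641802 (plus strand, COL5A1, the upstream of its 2 starts), chr3:48595330-48595579 (minus, COL7A1), chr3:142889084-142889333 (minus, PCOLCE2) and chr15:73926212-73926461 (plus, LOXL1).
COL5A1: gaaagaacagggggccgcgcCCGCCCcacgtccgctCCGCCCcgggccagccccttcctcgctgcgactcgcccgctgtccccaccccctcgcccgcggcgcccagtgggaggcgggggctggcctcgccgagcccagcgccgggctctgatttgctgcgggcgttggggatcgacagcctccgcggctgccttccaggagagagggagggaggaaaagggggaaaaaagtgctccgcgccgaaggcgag
COL7A1: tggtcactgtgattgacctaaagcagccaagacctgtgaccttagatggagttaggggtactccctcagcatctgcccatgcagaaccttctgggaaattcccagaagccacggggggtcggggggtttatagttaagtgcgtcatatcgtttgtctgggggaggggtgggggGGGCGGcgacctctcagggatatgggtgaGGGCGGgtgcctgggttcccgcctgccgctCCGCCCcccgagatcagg
PCOLCE2: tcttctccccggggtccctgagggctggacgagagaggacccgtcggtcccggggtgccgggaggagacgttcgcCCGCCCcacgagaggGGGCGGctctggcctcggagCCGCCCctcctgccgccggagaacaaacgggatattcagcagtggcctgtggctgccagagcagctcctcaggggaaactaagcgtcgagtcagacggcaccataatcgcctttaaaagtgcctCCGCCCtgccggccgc
LOXL1: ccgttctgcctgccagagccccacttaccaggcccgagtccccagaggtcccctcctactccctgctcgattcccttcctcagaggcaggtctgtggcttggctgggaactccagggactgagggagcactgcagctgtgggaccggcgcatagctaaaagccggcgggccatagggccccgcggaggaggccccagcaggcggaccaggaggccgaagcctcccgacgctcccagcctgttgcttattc
A GC box occurs 2 times in the COL5A1 window, 3 times in that of COL7A1 and 4 times in that of PCOLCE2, and 42.6% of all 35116 windows of this length hold it. The CCAAT box, found in 32.0% of all windows, and the AP-1 element, found in 6.6%, occur in none of the 4. The LOXL1 window holds no match to the 3 motifs. G and C make up 74.0%, 60.8%, 68.0% and 66.8% of the 4 windows in the order shown, against a median of 58.0% over all windows.

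**Figure D4:**
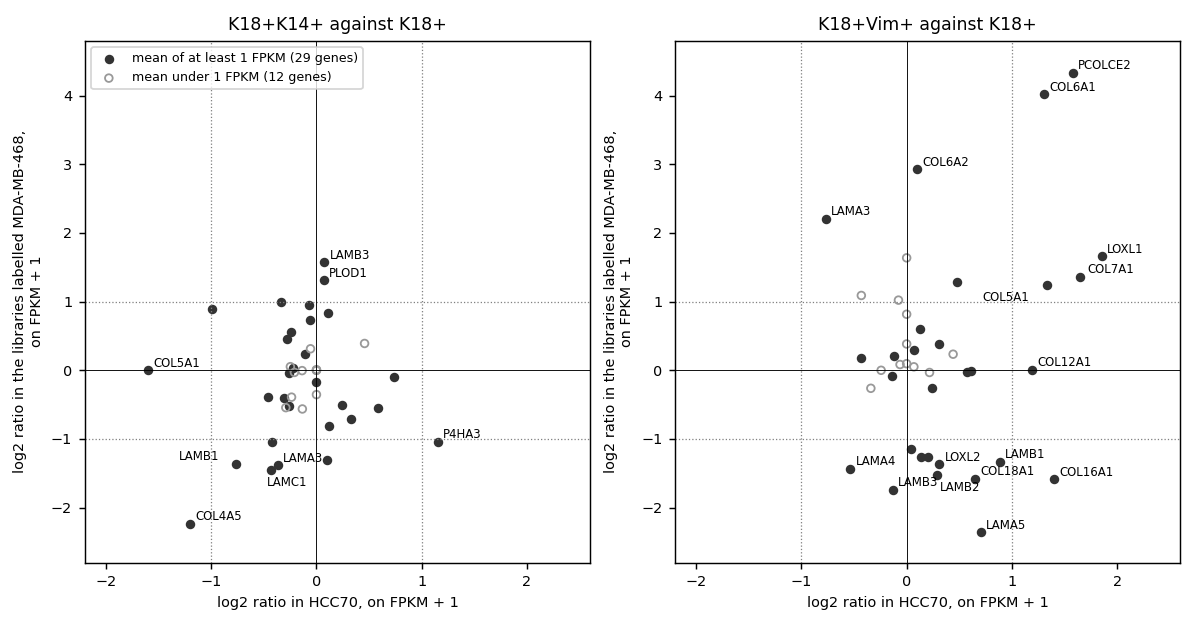
Log2 ratios on FPKM + 1 for K18+K14+ against K18+ (left) and K18+Vim+ against K18+ (right), each gene placed by its ratio in HCC70 (x axis) and in the libraries labelled MDA-MB-468 (y axis), with dotted lines at 2-fold. In the right panel PCOLCE2, COL6A1, LOXL1, COL7A1 and COL5A1 lie in the upper right corner, and in the left panel COL4A5 alone lies in the lower left corner.

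K18+K14+ cells were set against K18+ cells to ask which matrix genes go with keratin 14. COL4A5 had a lower value in the K18+K14+ library than in the K18+ library of each line, and it was the only gene of the 29 past 2-fold in the same direction in both. With limma 0 of 29 genes and 0% of all genes passed, and 1 of the 29 and 428 of all genes had an unadjusted p under 0.05. That fit takes its spread from all 6 libraries, both K18+Vim+ libraries included. With only the 4 libraries compared, 0 genes passed. At an unadjusted p under 0.05 there were then 4 of the 29 and 1599 of all genes. In HCC70, 1 gene was at least 2-fold higher (0.771% of all genes) and 2 at least 2-fold lower (2.33% of all genes). In MDA-MB-468, 3 were higher (9.13% of all genes) and 7 lower (15.5% of all genes). P4HA3, the higher gene in HCC70 and 1 of the lower in MDA-MB-468, averaged 1.12 FPKM. It met the filter only through the high values that are counted, 2.23 FPKM in HCC70 K18+K14+ and 2.38 FPKM in MDA-MB-468 K18+. In both lines 0 were higher (0.257% of all genes) and 1 lower (0.739% of all genes). This comparison and that of K18+Vim+ cells share the K18+ libraries.

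COL4A5 (Entrez Gene 1287), a basement membrane collagen IV chain of skin and kidney, stood at 37.6, 15.8 and 41.4 FPKM in HCC70, compared with 31.8, 5.96 and 12.6 FPKM in MDA-MB-468. The K18+K14+ library was the lowest of each line. The log2 ratios to K18+ were -1.2 and -2.24, and the fitted difference was -1.72 ± 0.46 (SE, n = 2 libraries in each population, adjusted p = 0.855 by limma). With only the 4 libraries compared the fitted difference was also -1.72 (limma adjusted p = 0.388). COL4A6, its head-to-head neighbour on the X chromosome, stood far lower, at 0.593, 0.302 and 0.182 FPKM and at 0.649, 0.131 and 2.51 FPKM. In RefSeq the 2 starts of COL4A6 lie 380 and 1416 bases from the COL4A5 start. The 250 bases before the COL4A5 start are shown because they lie between the genes (chrX:108439588-108439837, plus strand, GRCh38.p14), with capitals as above.
COL4A5: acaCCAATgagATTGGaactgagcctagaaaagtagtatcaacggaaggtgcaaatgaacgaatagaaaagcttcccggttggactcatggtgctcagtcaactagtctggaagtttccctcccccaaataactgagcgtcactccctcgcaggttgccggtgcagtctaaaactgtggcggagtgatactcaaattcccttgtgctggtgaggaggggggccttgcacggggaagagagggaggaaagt
This window holds 2 CCAAT boxes, of which 1 is on the minus strand, and neither of the other motifs. G and C make up 51.2% of it. It is less rich in these bases than the stretch between COL4A1 and COL4A2.

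Other genes did not pass 2-fold in the same direction in both lines. In HCC70 COL5A1 had the lowest ratio, at -1.60, with 2.0 FPKM in K18+K14+ against 8.08 FPKM in K18+, while in MDA-MB-468 both values were at the floor. P4HA3, a minor prolyl hydroxylase subunit, stood at 0.457, 2.23 and 0.5 FPKM in HCC70 against 2.38, 0.639 and 0.535 FPKM in MDA-MB-468, so it was high in K18+K14+ in HCC70 and in K18+ in MDA-MB-468. COL13A1, a transmembrane collagen, had the second highest ratio in HCC70, at 4.13 against 2.09 FPKM, while in MDA-MB-468 it stood at 1.55 against 1.72 FPKM.

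In MDA-MB-468 LAMB3 and PLOD1 had the highest ratios, 1.57 and 1.31, and LAMA4 followed with 1.0. The HCC70 ratios of these 3 genes were 0.07, 0.07 and -0.34. After COL4A5 the lowest ratio in MDA-MB-468 was that of LAMC1, at -1.46, followed by LAMA3 at -1.38 and LAMB1 at -1.36. In HCC70 these stood at -0.44, -0.37 and -0.76, with the same sign. The gamma1, alpha3 and beta1 chains thus had lower values in K18+K14+ than in K18+ in both lines, by less than 2-fold in HCC70, and did not pass the test. The fitted differences of LAMC1 and LAMB1 were -0.95 and -1.06, and -0.57 and -0.71 with a trend over transcript length removed (below).

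The 29 genes had a median log2 ratio of -0.22 for HCC70 and -0.17 for MDA-MB-468, near the medians of -0.15 and -0.17 over all genes. Rescaling to equal summed FPKM moved the fitted median of all genes from -0.16 to -0.38, and that of the 29 from -0.09 to -0.32. The set has long transcripts, with a median of 5674 bases over all 41 genes and 4305 bases over the 29 tested, against 3317 bases for all genes tested. Across 12409 genes with a known length, the log2 ratio of K18+K14+ to K18+ had a Spearman correlation with transcript length of -0.25 for HCC70 and -0.33 for MDA-MB-468. With the trend over length removed the fitted median of the 29 was 0.14, and 0 passed. The fitted difference of COL4A5 was then -1.36.

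Between K18+Vim+ and K18+K14+ cells 0 of the 29 genes and 0% of all genes passed with limma, while 8 of the 29 and 680 of all genes had an unadjusted p under 0.05. The 8 were LOXL1, PCOLCE2, COL5A1, COL6A1, COL7A1, PCOLCE and COL4A5, higher in K18+Vim+, and LAMB3, lower. The largest fitted log2 differences among them were 2.79 ± 0.67 for PCOLCE2, 2.65 ± 0.87 for COL6A1 and 2.09 ± 0.54 for COL5A1 (limma adjusted p = 0.682 for each). COL6A1 was tested only through the library labelled K18+Vim+ of MDA-MB-468, with a mean of 0.880 FPKM over the other 5. The count of 8 is therefore a description. Without the HCC70 K18+Vim+ library, where the arm is again the lone library labelled MDA-MB-468 with its spread taken from the other populations, 10 of the 29 and 1988 of all genes were past the threshold, and without the library labelled K18+Vim+ of MDA-MB-468 0 passed.

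Other genes of the same pathway were read from lists of further collagens and laminins, collagen synthesis, basement membrane partners and matrix receptors. In the comparisons of populations no tested gene of the 4 lists passed. Between the lines, 1 of the 5 further collagens and laminins tested and reported here was higher in MDA-MB-468 (COL23A1), and 2 of 17 synthesis genes were lower (FKBP10 and P3H2). Of 7 basement membrane partners 0 passed, and of 9 matrix receptors 1 was lower (ITGA2). Over all genes tested 5.2% were higher and 6.39% lower, and these small counts are a description. COL23A1, P3H2 and ITGA2 are named after their values were seen. FKBP10, a chaperone of procollagen, stood at 75.8, 63.1 and 77.7 FPKM in HCC70, compared with 2.95, 2.30 and 166 FPKM in MDA-MB-468, a log2 difference of -4.28 (limma adjusted p = 0.0033). It was thus low in MDA-MB-468 except in the library labelled K18+Vim+, which is the highest of the 6. P4HB and PPIB, which assist collagen folding in the endoplasmic reticulum, lay between 129 and 462 FPKM and between 304 and 594 FPKM. AGRN, the basement membrane proteoglycan agrin, stood at 254, 225 and 256 FPKM in HCC70, compared with 191, 99.3 and 25.5 FPKM in MDA-MB-468. The receptor DDR1, which binds collagens, stood at 102, 138 and 85.3 FPKM and at 211, 109 and 21.8 FPKM. AGRN and DDR1, like LAMA5 and LAMB2, were lowest in the library labelled K18+Vim+ of MDA-MB-468.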

How the data were processed

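RNA was sequenced from 6 sorted samples, 3 populations of each of 2 cell lines. Per the submitters' processing notes, reads were aligned with TopHat2 to GRCh37. The counting tool, annotation, lanes and batches are each not given in the sources used here. Values are per gene. The table deposited by the authors holds FPKM per Entrez Gene ID, with a floor of 0.1 and a ceiling of 10000 that 1 value reached. It gives no counts, and without a known depth no counting interval can be stated. Of 18807 entries, 7 with a blank value in the library labelled K18+Vim+ of MDA-MB-468 were left out, and for 5 IDs listed 2 times the entry with the higher mean was kept. Of the 18795 genes left, 18731 matched a symbol and 64 did not.

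Values were taken as log2(FPKM + 1), so differences of low genes are understated. The 12454 genes averaging at least 1 FPKM across libraries were tested in R 4.3.3 by limma 3.58.1, with lmFit and a trended eBayes, and p-values were adjusted by Benjamini-Hochberg over all genes of a comparison, with a threshold of 0.05. Populations were compared over all 6 libraries with cell line as a block, since the labels give 1 library of each population for each line. The lines were compared over the 4 K18+ and K18+K14+ libraries, without population as a term. Both fits have 2 residual degrees of freedom. The p-values measure the spread between these libraries, since nothing in the labels names separate cultures. Within a line, ratios of 2 libraries have no test and are counted from 2-fold. Python 3.11.15, pandas 2.3.3 and numpy 2.4.6 served for tables, matplotlib 3.10.9 for figures. Transcript lengths and names came from reference tables of another build, and promoter sequences from RefSeq (GRCh38.p14).

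The genes and lists were chosen with earlier results of these data known. Values in every library are given for genes that passed a limma test, genes past 2-fold the same way in both lines, the 2 largest ratios per direction, line and comparison with K18+, the 5 highest means and the 5 largest line differences per direction. The sort antigens and genes that mark the lines are named, and up to 4 genes of each other list, those with the highest mean. Markers at the table's floor are named besides, after their values were seen. A gene of these lists is not reported here. Alternatives were no filter on low values, a minimum mean of 5 FPKM, pseudocounts of 0.1 and 5, quantile normalization, limma without trend, other sets of libraries, no block, and leaving out each library in turn. Rescaling to equal sums and removal of a trend over transcript length were added after the data were seen.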

Additional observations from a re-analysis of the deposited data

Results flagged for a closer look

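P4HA3 and COL16A1 passed 2-fold in opposite directions in the 2 lines, and the difference between the lines was not tested. The log2 ratio of P4HA3 between K18+K14+ and K18+ was 1.15 for HCC70 and -1.05 for MDA-MB-468, at levels that did not exceed 2.38 FPKM. Its mean of 1.12 FPKM met the filter only through the high values behind these ratios. The log2 ratio of COL16A1, a fibril-associated collagen, between K18+Vim+ and K18+ was 1.40 in HCC70 and -1.59 between the libraries labelled MDA-MB-468. Between K18+Vim+ and K18+K14+ it was 1.71 and -1.18. Both COL16A1 ratios of the second line rest on the library labelled K18+Vim+ of MDA-MB-468, which goes against its line in SMAD4, RB1 and EGFR. The part of that in the ratios was not tested.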

How the results depend on the processing

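Of 612 values recomputed under an alternative, 513 stayed within the limits set for them, which were direction and side of the threshold for a gene, 1.5 times for a count and 1 SD of the medians of the 2 pairs of libraries for a median. Beyond these limits, 52 counts or medians moved, 41 gene values fell below the threshold and 6 passed it. Of 326 values of single genes 0 changed direction, and of 87 medians 8 changed sign. A library left alone in its arm is assumed to vary like the others. The 0 counts of the population comparisons held under each alternative except where a library was left out. Leaving out each library in turn gave 0 to 1 genes past the threshold for K18+K14+ against K18+, 0 to 1500 for K18+Vim+ against K18+ and 0 to 1988 for K18+Vim+ against K18+K14+, with 0 to 8 and 0 to 10 of the matrix genes in the last 2. The highest counts came without the HCC70 K18+Vim+ library. Without the block for cell line no gene passed in these comparisons either (0 in each). For the lines, leaving out each library gave 67 to 4143 genes and 0 to 13 matrix genes. The replicate block, population as a term, gave 3366 genes and 13 matrix genes for the lines, no filter gave 118 and 0, removal of the length trend 2196 genes, 5 libraries 3196 genes, and rescaling to equal sums 5 matrix genes. The cause of these changes was not tested.

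The median log2 difference of the matrix genes between the lines was -0.52 after rescaling, -0.49 with 5 libraries, 0.0 with no filter and -0.41 to 0.06 with a library left out, so its sign is not settled. For K18+K14+ against K18+ it was -0.20 and -0.04 with pseudocounts of 0.1 and 5, 0.11 with quantile normalization, -0.32 after rescaling, 0.14 with the length trend removed, and -0.36 to -0.01 with a library left out, so its sign is not settled. For K18+Vim+ against K18+ it was -0.06 with a minimum of 5 FPKM and -0.09 to 0.38 with a library left out, so that of 0.04 has no settled sign either, and the median ratio in the libraries labelled MDA-MB-468 was 0.08 with no filter and 0.13 with quantile normalization. The K18+K14+ to K18+ median ratio in HCC70 was -0.10 with a pseudocount of 5, -0.13 with no filter, -0.04 with quantile normalization and -0.18 after rescaling. In MDA-MB-468 it was -0.43 and -0.04 with pseudocounts of 0.1 and 5, -0.03 with no filter, 0.02 with a minimum of 5 FPKM, -0.05 with quantile normalization and -0.61 after rescaling.

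Counts past 2-fold moved as follows. For K18+K14+ against K18+ in HCC70, the count higher was 2 with a pseudocount of 0.1 (1.83% of all genes). It was 0 with a pseudocount of 5 (0.249%) or a minimum of 5 FPKM (0.736%). The count lower was 1 with a pseudocount of 5 (0.45%). In MDA-MB-468 the count higher was 5 with a pseudocount of 0.1 (11.5%), 5 with quantile normalization (10.1%) and 1 after rescaling (2.73%). The count lower was 2 with a pseudocount of 5 (5.97%). For K18+Vim+ against K18+, a pseudocount of 5 gave 3 higher in HCC70 (0.602% of all genes) and 6 lower in the libraries labelled MDA-MB-468 (9.97%). It gave 1 higher in both lines (0.0723%), and a minimum of 5 FPKM gave 4 higher in HCC70 (1.34%). Of 15 alternatives for the lines, LAMA3, LAMA4 and LAMC1 passed in 12, LAMB1 in 11, PCOLCE in 9, LAMB3 and COL5A1 in 8 and COL7A1 in 7. Depth is unknown, so what it limits cannot be stated.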
